A study of Mus musculus with 2 samples.

Results

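The mitochondrial genome of the mouse carries 37 annotated genes, namely 13 mRNAs, 2 rRNAs and 22 tRNAs. They are described here together with 7 nuclear sequences that are near copies of them, Gm10222, Gm10925, Gm28437, Gm28438, Gm28439, Gm28661 and Gm29216. Genes were chosen by symbol, all those whose identifier maps to a name starting with mt- plus the 7 named copies, which gave 44 of the 69691 features in the gene tables. Of these 44, 22 had counts in both libraries, and the other 22, the tRNAs, had none.

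The RNA came from the heart of 1 adult female mouse of strain C57BL/6J aged 10 weeks. No treatment, allele or other agent is labelled, and there is a single group. Both libraries, called replicates 1 and 2 here, are technical replicates of that 1 sample, and replicate 2 was made later. The assay is named as RNA-seq of polyadenylated mRNA, although the molecule field reads total RNA. With 1 animal, each mean ± SD covers technical spread over 2 libraries, and no value extends to other mice.

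Mitochondrial DNA is transcribed from both strands into long precursor RNAs. tRNAs sit between most of the mRNAs and rRNAs, and cutting the precursor at the tRNA ends releases them, after which most mRNAs receive a poly(A) tail. The mRNAs encode core subunits of respiratory complexes I, III and IV and of ATP synthase, which supply most of the ATP of the beating heart, and the rRNAs build the mitochondrial ribosome. Fragments of mitochondrial DNA have also entered the nuclear chromosomes during evolution, where they are annotated as pseudogenes.

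Replicate 1 held 22775991 expected counts and replicate 2 held 19685821. The 44 features took 77.9% of the counts of replicate 1 (95% Wilson interval 77.91 to 77.94) and 35.7% of those of replicate 2 (35.69 to 35.74), intervals that cover counting error only. Genes outside the 44 kept 5028376 and 12654804 counts. Heart muscle markers were present in both libraries: the ventricular light chain Myl2 had 546 and 10108 TPM (a level per transcript length, scaled to the same total in each library), the myosin heavy chain Myh6 39.7 and 4193, troponin Tnnt2 120 and 6078, and cardiac actin Actc1 240 and 4224. Markers of other tissues were far lower: liver Alb had 2.21 and 22.7 TPM, skeletal muscle Acta1 0.17 and 75.5, and lung Sftpc had 0 counts in both. All 4 heart markers differed between the libraries along with the mitochondrial share, and their part in the results below was not tested. In the comparison of libraries described below (TMM scaling), all 4 were called higher in replicate 2, where 38.4% of all tested features were. Their log2 ratios ran from 1.92 (Actc1) to 4.98 (Myh6), where the median of all was 0.21. Alb (1.14) and Acta1 (6.45) were also called higher. In bulk tissue, the level of a marker does not tell the number of cells of a type from the RNA per cell. Whether this limit also bears on the difference between the 2 technical libraries was not tested.

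The 7 nuclear copies form 1 block at chr1:24611535-24616197 (GRCm38, which is mm10), 4663 bases long, all on the minus strand. They are annotated as unprocessed pseudogenes, and no other annotated gene overlaps the block. The nearest protein-coding genes are Col19a1, 24063 bases to the left, and Lmbrd1, 62433 bases to the right. From the right end of the block to the left, the copies follow the order of mt-Co1, mt-Co2, mt-Atp6, mt-Co3, mt-Nd3, mt-Nd4l and mt-Nd4 on the mitochondrial genome. The sum of a copy's end on chromosome 1 and the matching start on the mitochondrial genome was 24622578 for 5 copies and 24622577 for the other 2, Gm10222 and Gm28439. The annotated copies thus run parallel to the mitochondrial genes, apart from a shift of 1 base between the segments of mt-Nd3 and mt-Nd4l. The tRNA mt-Tr lies there on the mitochondrial genome. The chromosome 1 sequence between the annotated copies was not compared. mt-Atp8, which starts between the segments of mt-Co2 and mt-Atp6, has no annotated copy in the block.

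Gene and copy differ in only a few bases over the length they share, and these are printed to show how alike the sequences are. Spelled as in the GENCODE M21 transcripts, 5 of the annotated copies had no substitution at all against their gene. Gm28661 (copy of mt-Co2), Gm10925 (mt-Atp6) and Gm10222 (mt-Nd4l) lacked only the last 3 bases, and Gm28437 (mt-Co3) lacked only the last base. The ends of these genes show in capitals the bases that the annotated copy does not include, which for mt-Co2, mt-Atp6 and mt-Nd4l spell a stop codon.
mt-Co2: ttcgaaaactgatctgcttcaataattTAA
mt-Atp6: gtaagcctatatctacatgataatacaTAA
mt-Nd4l: gtccaaaatctcaacctactacaatgcTAA
mt-Co3: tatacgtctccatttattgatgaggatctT
These are chrM:7667-7696, chrM:8578-8607, chrM:10144-10173 and chrM:9361-9390 on the plus strand. The end of Gm28661 (chr1:24614885-24614914, minus strand) stops just short of that codon.
Gm28661: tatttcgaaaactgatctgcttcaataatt
The fifth copy without a substitution, Gm28439, matches the first 876 of the 1378 bases of mt-Nd4 and lacks the remaining 502.

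The other copies differ in their letters. Gm28438 differs from mt-Nd3 by 1 substitution, T3C, counted from base 1 of the gene, and lacks its last 3 bases. The differing base is in capitals in the starts of the gene (chrM:9459-9488) and the copy (chr1:24613090-24613119, minus strand).
mt-Nd3: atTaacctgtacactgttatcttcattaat
Gm28438: atCaacctgtacactgttatcttcattaat
Gm29216 is a partial copy of mt-Co1, covering bases 1054 to 1545, and carries 6 substitutions, T1056A, C1057T, A1059G, A1060G, C1062A and A1066T, counted from base 1 of mt-Co1. All 6 fall in its first 13 bases, at the outer edge of the block, and the other bases are identical. Capitals mark them in the gene (chrM:6381-6410) and the copy (chr1:24616168-24616197, minus strand).
mt-Co1: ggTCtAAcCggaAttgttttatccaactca
Gm29216: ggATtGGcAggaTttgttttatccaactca

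Because of this identity, reads from the bases that a gene and its copy share form 1 pool, and the deposited division is an estimate. Gm29216 and Gm28439 match only part of mt-Co1 and mt-Nd4. The counts of these 2 genes can therefore also hold reads from bases that the copy does not cover. Of the counts of all 7 pairs, the copies received 3685375 of 11713582 in replicate 1 (31.5%) and 2059573 of 4913722 in replicate 2 (41.9%). The share was higher in replicate 2 in 6 of 7 pairs. In 5 pairs the copy, annotated as a pseudogene, held more than 50% of the pair in both libraries. In TPM the copies together took 27.8% of replicate 1 and 26.5% of replicate 2, although by counts they took 16.2% and 10.5%.

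The pairs of mt-Co2, mt-Co3 and mt-Atp6 had the least certain split. mt-Co2, the subunit that takes electrons from cytochrome c, had 465877 and 28511 counts, and Gm28661 had 1232941 and 635287, so the copy held 72.6% of the pair in replicate 1 and 95.7% in replicate 2. The posterior SD of the counts, the deposited measure of how widely the estimate could vary, was 14.0% and 16.5% of the pair. For mt-Co2 in replicate 2 that SD, 109730 counts, was larger than the count itself. The posterior mean for the same gene was 127258 counts, 4.46 times the expected count.

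mt-Co3, the third large subunit of the same enzyme, had 591376 and 64410 counts against 907831 and 644199 for Gm28437. The copy's share was 60.6% and 90.9%, with a posterior SD of 21.2% and 23.5% of the pair. mt-Atp6, which forms the proton path of ATP synthase, had 756515 and 148455 counts, and Gm10925 had 926596 and 361021, a share of 55.1% and 70.9% with a posterior SD of 14.6% and 17.3%. These are the 3 pairs whose posterior SD exceeded 10% of the pair in both libraries, and with posterior means the copies' shares were lower: 61.0% and 80.8% for Gm28661, 56.1% and 67.6% for Gm28437, and 44.8% and 55.5% for Gm10925. In each of these pairs the posterior SDs of gene and copy were equal to within rounding.

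The complex I pairs were split with much smaller posterior SDs. Gm28438 held 94.2% and 96.8% of the pair with mt-Nd3 (217576 and 86426 counts against 13363 and 2839), with a posterior SD of 0.40% and 0.51% of the pair. Gm10222 held 89.8% and 90.8% of the pair with mt-Nd4l (151880 and 69115 against 17275 and 6980), with 1.39% and 0.64%. By the deposited counts alone, mt-Nd3 and mt-Nd4l would thus be minor genes beside their own copies.

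The partial copies behaved differently between the libraries. Gm29216 held 24381 counts in replicate 1 and 263458 in replicate 2, 10.8-fold more, or 0.516% and 11.4% of the pair with mt-Co1. Gm28439 held 224171 counts in replicate 1 and 66.28 in replicate 2, 3382-fold fewer, or 13.1% and 0.012% of the pair with mt-Nd4. Their posterior SDs were at most 0.089% of the pair, so in these pairs the split differed between libraries by far more than the deposited uncertainty. The sums of gene and copy had no such swings: replicate 2 held between 0.303 (mt-Atp6) and 0.489 (mt-Co1) of the counts of replicate 1 in all 7 pairs.

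**Figure D1:**
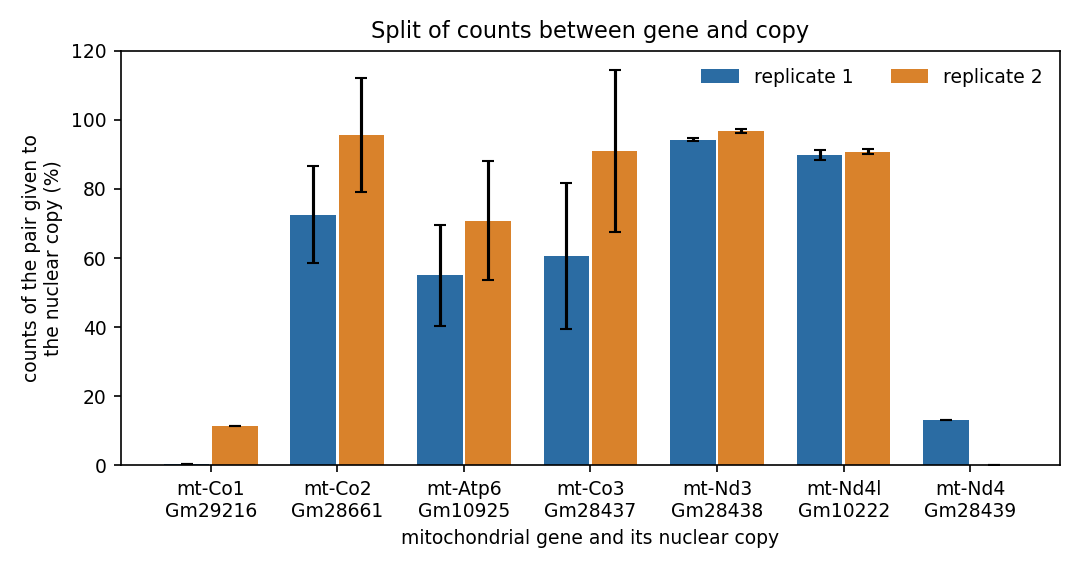
Percent of the counts of each gene and copy that the deposited tables gave to the nuclear copy, in replicate 1 (blue) and replicate 2 (orange), with pairs in the order of the mitochondrial genome. Error bars are the posterior SD as a percent of the pair and can pass 100%; they are wide for mt-Co2, mt-Atp6 and mt-Co3, and the bars of mt-Co1 and mt-Nd4 are low in at least 1 library.

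Levels are therefore given for gene plus copy, as a percent of the TPM of all 44 features, which leaves out the nuclear share that differed between the libraries. In this scale complex IV held 31.5% of mitochondrial TPM in replicate 1 and 41.7% in replicate 2 (mean 36.6% ± 7.22, SD, n = 2). ATP synthase held 33.5% and 25.9% (29.7% ± 5.39) through 2 genes, and complex I held 28.9% and 25.8% (27.3% ± 2.20) through 7 genes. The only complex III gene, mt-Cytb, held 4.94% and 5.34% (5.14% ± 0.28). The 2 rRNAs held 1.16% and 1.29% (1.22% ± 0.088). Complex IV and ATP synthase changed places between the libraries, so their order is not resolved by these data.

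In complex IV, mt-Co1, which carries the catalytic centre, was at 11.8% and 20.2% of mitochondrial TPM (15.97% ± 5.95). It had the widest spread of the 15 genes. Part of its value rests on the partial copy, whose shorter length gives each count more TPM: with the counts of gene and copy divided by the effective length of mt-Co1, it was at 11.7% and 15.4%. mt-Co2 was at 11.40% and 11.44% (11.4% ± 0.025), nearly the same in both libraries although the split with its copy was not. mt-Co3 was at 8.35% and 10.1% (9.23% ± 1.25).

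The ATP synthase genes lie on 1 RNA and overlap. mt-Atp8, a small membrane subunit, had the highest mean level, 22.1% and 17.1% (19.6% ± 3.59), and mt-Atp6 was at 11.4% and 8.82% (10.1% ± 1.79). The ranges of mt-Atp8 and mt-Co1 overlapped, as did those of mt-Atp6 and mt-Co3.

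In complex I, mt-Nd1 was at 5.63% and 5.26% (5.45% ± 0.26), mt-Nd4l at 5.01% and 5.74% (5.37% ± 0.52) and mt-Nd2 at 5.81% and 3.90% (4.85% ± 1.35). mt-Nd3 was at 4.78% and 4.74% (4.76% ± 0.031), and mt-Nd4 at 5.23% and 3.97% (4.60% ± 0.89). Together with mt-Cytb these genes formed a run in which each range overlapped that of the next gene in order. mt-Nd5, the longest mRNA, was lower at 2.34% and 2.06% (2.20% ± 0.20). All of the mt-Nd genes encode membrane subunits of the NADH dehydrogenase.

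mt-Nd6, also a complex I subunit, is the 1 mRNA encoded on the minus strand (chrM:13552-14070), and it had the lowest level of all, 0.085% and 0.103% (0.094% ± 0.013). Its counts, 8472 and 4016, were the fewest of the 15 genes. mt-Nd5 on the other strand overlaps it by 14 bases. Per length mt-Nd5 was 27.6 and 19.999 times as high (23.8 ± 5.41), and mt-Cytb 58.3 and 51.8 times (55.1 ± 4.64). Poly(A) tails were not measured, so these ratios hold for an assay of polyadenylated RNA and need not equal those in the tissue. No source used here says whether strand entered the counting, so RNA from the opposite strand cannot be told apart from that of mt-Nd6.

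The rRNAs carry only short tails of adenines or none and are normally depleted when poly(A) RNA is selected. They were listed with counts all the same. mt-Rnr2, the large rRNA (chrM:1094-2675), had 308341 and 121509 counts, or 0.735% and 0.740% of mitochondrial TPM (0.737% ± 0.004). mt-Rnr1, the small rRNA (chrM:70-1024), had 98507 and 49219 counts, or 0.426% and 0.545% (0.486% ± 0.084). Per length the large rRNA was 1.72 and 1.36 times as high as the small (1.54 ± 0.26), and both were above mt-Nd6 and below the other mRNAs in both libraries.

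Over the whole order from mt-Atp8 to mt-Nd6, 7 of the 14 steps between neighbours had overlapping ranges and 7 did not. The steps that did not overlap were those from mt-Co1 to mt-Co2, mt-Co2 to mt-Atp6, mt-Co3 to mt-Nd1 and mt-Nd4 to mt-Nd5. The 3 that follow down to mt-Nd6 did not overlap either. With the effective length of the gene, mt-Co1 was at 11.7% and 15.4% and mt-Co2 at 11.5% and 12.1%, which overlap. The step from mt-Co2 to mt-Atp6 was narrow, 11.40% against 11.35% in replicate 1. With n = 2 technical libraries this order describes these libraries and was not tested. Had the copies been left out, mt-Co2 would have ranked 10th and mt-Nd3 14th of the 15 genes.

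**Figure D2:**
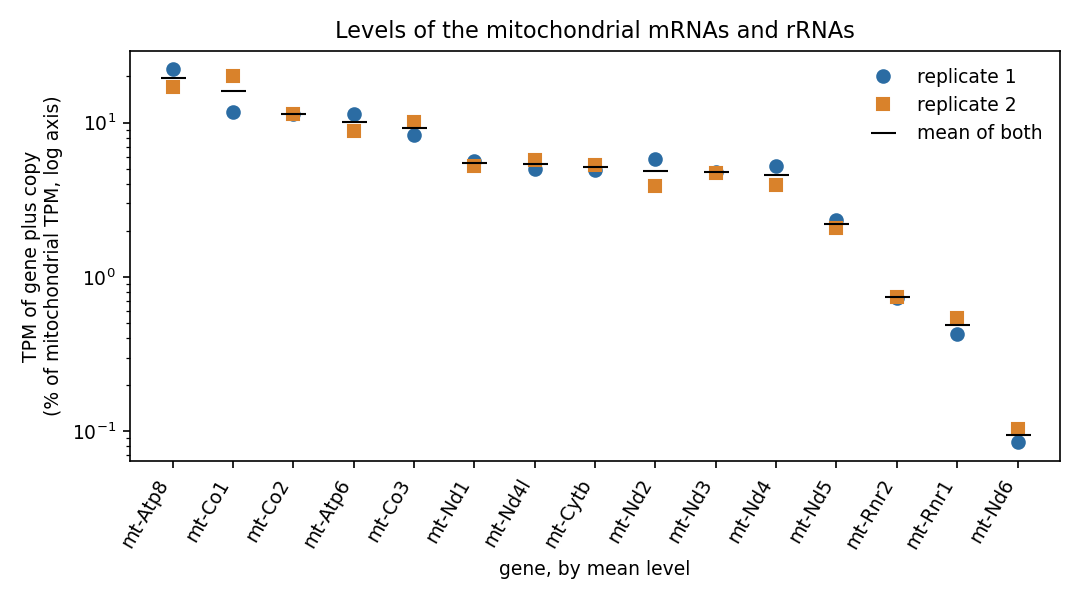
Level of each mitochondrial mRNA and rRNA, as TPM of gene plus copy in percent of all mitochondrial TPM (log axis), in replicate 1 (blue circles) and replicate 2 (orange squares), with the mean of both as a black line. The genes run from mt-Atp8 at 19.6% to mt-Nd6 at 0.094%, and the points of mt-Co1 lie farthest apart.

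TPM divides each count by an effective length, the number of places at which a fragment of the library can lie on the transcript, and this decides the rank of the short genes. For the long genes the effective length was 186.6 nt shorter than the annotated length in replicate 1 and 188.46 nt shorter in replicate 2. mt-Atp8, annotated at 204 nt (chrM:7766-7969), was left with 37.50 and 39.17 nt, mt-Nd4l (297 nt) with 114.79 and 115.06, and mt-Nd3 (348 nt) with 163.26 and 162.70. A count in mt-Atp8 was worth 0.822 and 1.32 TPM, whereas a count in mt-Nd5 was worth 0.0188 and 0.0316.

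With counts of gene plus copy divided by annotated length, mt-Atp8 ranked 9th, at 5.98% of mitochondrial RNA, and mt-Co1 held the first at 18.6%. mt-Co2 followed with 13.4%, mt-Atp6 with 11.9% and mt-Co3 with 11.4%. mt-Nd4l was at 3.32% and mt-Nd3 at 3.57% in that scale. mt-Nd6 stayed last at 0.098%, and the rRNAs stayed just above it at 0.636% and 1.06%. Complex IV then held 43.5% ± 4.91 and ATP synthase 17.8% ± 2.86 (SD, n = 2), so the 33.5% and 25.9% given above for ATP synthase depend on the length correction of mt-Atp8.

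**Figure D3:**
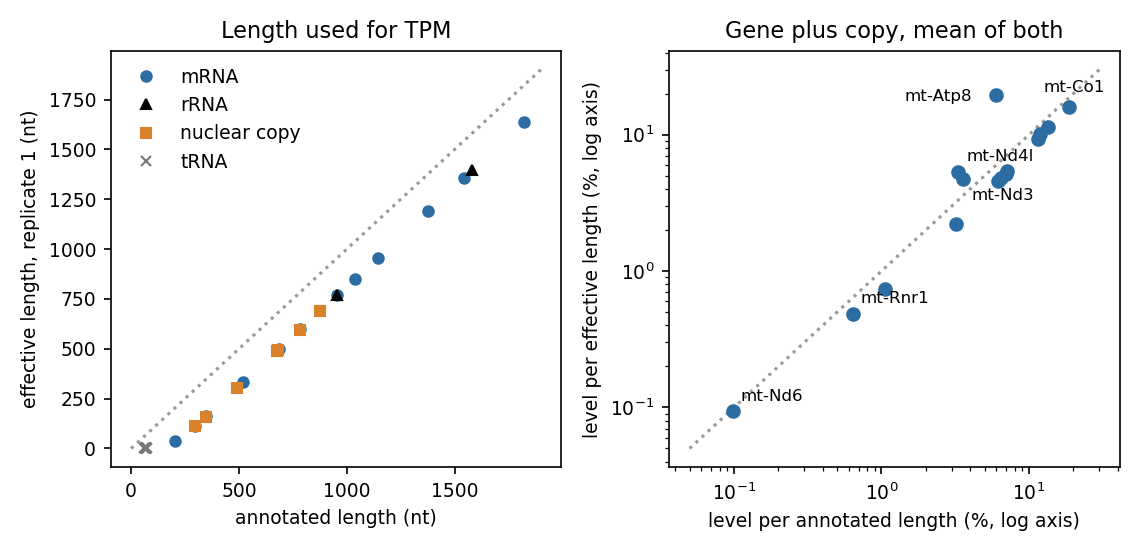
Left, effective length against annotated length (nt, replicate 1) for all 44 features by kind; right, mean level of gene plus copy in percent per effective length against per annotated length (both log axes). Dotted lines mark equal values; the tRNAs sit at an effective length of 0, and mt-Atp8 lies farthest above the line on the right.

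Genes that share 1 RNA show the same dependence. mt-Atp8 and mt-Atp6 overlap by 43 bases, in capitals in the last 60 bases of mt-Atp8 (chrM:7910-7969), and mt-Nd4l and mt-Nd4 by 7 bases, in capitals in the last 60 bases of mt-Nd4l (chrM:10114-10173). In both cases the capitals begin with the start codon of the downstream gene and end with the stop codon of the upstream one.
mt-Atp8: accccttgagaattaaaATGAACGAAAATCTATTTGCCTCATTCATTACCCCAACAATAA
mt-Nd4l: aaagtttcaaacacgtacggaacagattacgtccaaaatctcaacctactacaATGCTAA
The TPM of mt-Atp8 was 1.95 and 1.94 times that of mt-Atp6 with its copy (1.94 ± 0.011), but 0.496 and 0.516 times per annotated length (0.506 ± 0.014). The ratio was thus steady across the libraries and turned in direction with the length used. For mt-Nd4l over mt-Nd4, each with its copy, the TPM ratio was 0.958 in replicate 1 and 1.45 in replicate 2 (1.20 ± 0.35). Per annotated length it was 0.459 and 0.635. With counts of gene plus copy divided by the effective length of the gene, it was 1.03 and 1.42, above 1 in both libraries. The value below 1 thus rests on the partial copy Gm28439, whose shorter length gives each count more TPM. Without the copies the mt-Nd4l ratio was 0.121 and 0.130, since nearly all counts of mt-Nd4l sat in Gm10222.

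The annotated mRNAs also show how little room lies between genes. Of the 36 borders between neighbouring genes, 21 had no base between them or overlapped, and 32 had a tRNA on at least 1 side. The 4 borders without a tRNA were mt-Atp8 to mt-Atp6, mt-Atp6 to mt-Co3 (1 base shared), mt-Nd4l to mt-Nd4, and mt-Nd5 to mt-Nd6. For 3 mRNAs, mt-Co3, mt-Nd4 and mt-Cytb, the annotated length was 1 base over a whole number of codons. Such genes end in the first base of a stop codon that the poly(A) tail completes; that last base is in capitals in the end of mt-Co3 printed above and in those of mt-Nd4 (chrM:11515-11544) and mt-Cytb (chrM:15259-15288).
mt-Nd4: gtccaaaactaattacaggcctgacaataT
mt-Cytb: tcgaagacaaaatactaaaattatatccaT

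The 22 tRNAs, from 59 to 75 nt long and 8 of them on the minus strand, were each listed with 0 counts and 0 TPM in both libraries. Their effective length was 0, which in the tables' length model leaves no place for a fragment. This held for other short genes as well: none of the 726 Ensembl genes of 59 to 75 nt, and none of the 26172 features of up to 75 nt, had a count. Features with an effective length of 0 reached 118 nt in replicate 1 and 116 nt in replicate 2. None of these had a count in replicate 1, and 3 of 30050 had one in replicate 2, 2.53 counts in all. The limit that a 0 allows, 3 counts, is 1.32e-05% of replicate 1 and 1.52e-05% of replicate 2, but at an effective length of 0 these zeros do not measure the tRNAs. The shortest, mt-Ts2 (chrM:11613-11671), the longest, mt-Tl1 (chrM:2676-2750), and the pair that stand before mt-Atp8 and mt-Nd4l, mt-Tk (chrM:7700-7764) and mt-Tr (chrM:9808-9875), are printed to show how short these genes are.
mt-Ts2: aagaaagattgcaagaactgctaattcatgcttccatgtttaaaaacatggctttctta
mt-Tl1: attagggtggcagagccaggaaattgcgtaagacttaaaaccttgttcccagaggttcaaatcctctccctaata
mt-Tk: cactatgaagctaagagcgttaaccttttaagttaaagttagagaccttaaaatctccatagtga
mt-Tr: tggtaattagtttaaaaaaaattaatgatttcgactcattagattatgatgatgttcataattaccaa

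Between the libraries the mitochondrial genes moved almost as a block. Features with 20 or more counts in all were compared in edgeR by an exact binomial test (two-sided, TMM scaling). A call needed a 2-fold change or more and an adjusted p (Benjamini-Hochberg) below 0.05. This test compares 2 libraries of 1 animal and covers counting error only. Of the 22 features tested one by one, 21 were lower in replicate 2, where 27.2% of all 13182 tested features were lower. The 1 called higher was Gm29216, with a log2 ratio (replicate 2 over replicate 1) of 1.96, where 38.4% of all were higher. With the copies added to their genes, 15 of 15 were lower and none was higher, against 27.2% lower and 38.3% higher among all 13175.

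The log2 ratios of gene plus copy lay between -2.47 for mt-Rnr1 (5.55-fold) and -3.40 for mt-Nd2 (10.6-fold), with a median of -2.83 where the median of all tested genes was 0.21. mt-Atp6 was at -3.20, mt-Atp8 at -3.14, mt-Nd4 at -3.09 and mt-Nd5 at -3.01. mt-Co1 was at -2.50, mt-Co3 at -2.55, mt-Nd6 at -2.55 and mt-Nd4l at -2.63. The size of these ratios depends on scaling. When library totals were used, which moved the median of all genes to 1.89, the 15 ratios lay between -0.79 and -1.72 and 10 of the 15 were called lower, where 1.02% of all were. The other 5, mt-Co1, mt-Co3, mt-Nd4l, mt-Nd6 and mt-Rnr1, were then below a 2-fold change. Of all called features 58.5% were higher in replicate 2 with TMM scaling and 98.4% with library totals.

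Within the mitochondrial RNA the composition shifted less. As a percent of all mitochondrial counts, mt-Nd2 went from 8.38% to 5.55%, a log2 ratio of -0.60 and the largest shift of the 15. mt-Atp6 went from 9.48% to 7.25% (-0.39), mt-Atp8 from 1.41% to 1.12% (-0.33) and mt-Nd4 from 9.63% to 7.90% (-0.29). These had a smaller part of replicate 2 than of replicate 1.

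In the other direction, mt-Rnr1 went from 0.555% to 0.700% (0.33), mt-Co1 from 26.6% to 32.9% (0.30), mt-Nd6 from 0.048% to 0.057% (0.26) and mt-Co3 from 8.45% to 10.1% (0.26). mt-Nd4l (0.18) and mt-Cytb (0.09) were also higher. In all, 6 of the 15 genes had a higher and 9 a lower share in replicate 2. mt-Rnr2 (-0.01), mt-Co2 (-0.02) and mt-Nd3 (-0.04) kept nearly the same share. Within complex I, mt-Nd2 and mt-Nd6 had ratios of opposite sign, and the difference was not tested.

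Both genes of ATP synthase, which share 1 RNA, shifted by similar amounts. mt-Nd4l and mt-Nd4, which also share 1 RNA, had ratios of opposite sign. Across the 15 genes the shift had a Pearson correlation of 0.41 (Spearman 0.38) with the GC content of the gene, which ran from 31.9% in mt-Atp8 to 41.1% in mt-Nd4l. Without the 2 genes farthest from the median GC content it was 0.26 (Spearman 0.25, n = 13), and with length it was -0.03 (Spearman 0.02). These are descriptions across genes of the same 2 libraries, and genes are not independent replicates.

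**Figure D4:**
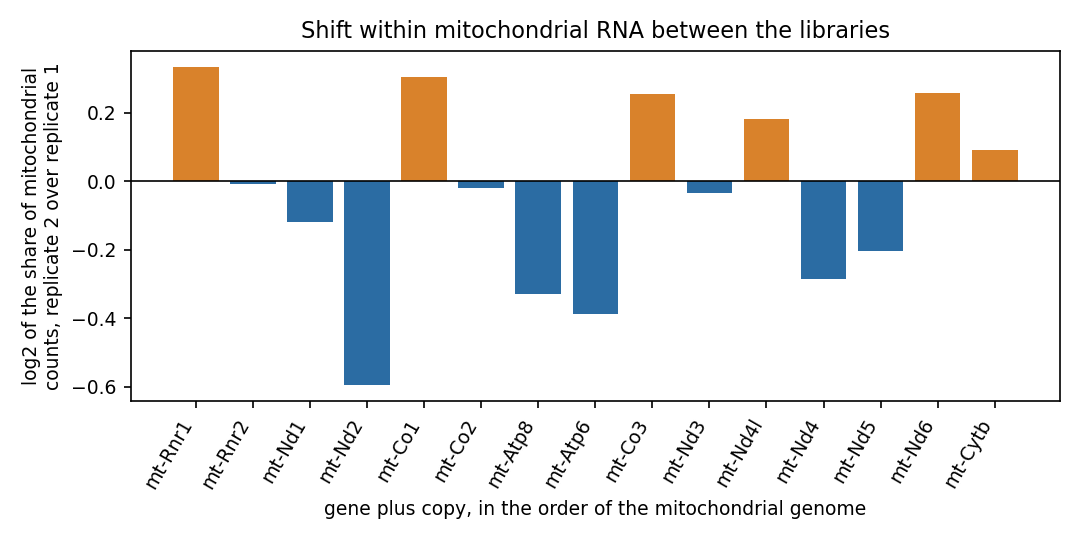
Log2 ratio (replicate 2 over replicate 1) of each gene's share of the mitochondrial counts, gene plus copy, with orange bars above 0 and blue bars below. mt-Nd2 is lowest at -0.60 and mt-Rnr1 highest at 0.33, and 9 of 15 bars lie below 0.

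Nuclear genes that process mitochondrial RNA were measured in the same libraries. The list holds 18 genes for cutting at tRNA ends, polyadenylation, stabilisation and decay, and all 18 were tested. In replicate 2, 3 were higher and 7 lower, and 8 were not called, where 38.4% of all tested features were higher and 27.2% lower. The median log2 ratio was -0.45 beside 0.21 over all tested features. With library totals 10 were higher, none was lower and 8 were not called, where 65.8% of all were higher and 1.05% lower, and the median was 1.23 beside 1.89. With TMM scaling Fastk, the founding member of a family of mitochondrial RNA-binding proteins, had 0.68 and 103 TPM and was higher (log2 4.76), as were its relative Tbrg4 (5.82) and Elac2 (2.17), which cuts the 3′ ends of tRNAs. All 3 were also higher with library totals. The lower genes were Trmt10c, a subunit of the enzyme that cuts the 5′ ends, the poly(A) polymerase Mtpap, the exonuclease Pnpt1, Pde12, which shortens poly(A) tails, and Fastkd1, Fastkd2 and Fastkd5. Their log2 ratios lay between -1.30 (Fastkd1) and -2.12 (Trmt10c), but with library totals none of these 7 was called, and the ratios of Fastkd1, Fastkd2 and Fastkd5 were then above 0.

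The other highly expressed genes of the list were not called with TMM scaling and were all higher with library totals. Hsd17b10, a further subunit of the 5′ enzyme, had 9.78 and 91.1 TPM, with a log2 ratio of 0.9965, just under a 2-fold change, and of 2.68 with library totals. Lrpprc, which stabilises mitochondrial mRNAs, had 9.82 and 43.3 TPM (-0.08, and 1.60 with library totals). Its partner Slirp had 13.9 and 30.4 TPM (-0.67, and 1.02 with library totals). With either scaling, no gene plus copy of the mitochondrial genome was called higher in replicate 2, whereas Fastk, Tbrg4 and Elac2 were. These 3 had only 41, 5 and 32 counts in replicate 1. They do not stand for the list, of which 7 of 18 genes were lower with TMM scaling.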

How the data were processed

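Poly(A) RNA of 1 mouse heart was measured in 2 technical libraries. The authors deposited expected counts, TPM, effective lengths and posterior means and SDs of the counts per gene, on assembly mm10 with annotation M4 per the deposited file descriptions. Program, aligner and use of strand: not given in the sources used here. Effective lengths and posterior SDs were used as deposited. Symbols, positions and transcript sequences are those of GENCODE M21 (GRCm38), whose lengths equal the deposited lengths for all 44 features; each has 1 transcript. Copies were aligned to genes with blastn 2.17.0 (at least 95% identity over 90% of the copy, e-value up to 1e-10). Expected counts were rounded for tests in edgeR 4.0.16 (R 4.3.3, two-sided exact binomial, TMM, at least 20 counts, 0.5 counts added for log2 ratios). The step was tested on simulated counts with counting error only, few changed genes and no mitochondrial features. That simulation does not cover the scaling of libraries that differ as widely as these. DESeq2 1.42.0 gave size factors for an alternative. Python 3.11.15 with pandas 2.3.3 computed the shares. Total expected counts were 22775991 and 19685821, and Wilson intervals (95%) cover counting error only. Alternatives covered scaling, filters, lengths, posterior means, copies and single libraries. All mRNAs, rRNAs and copies were named, with tRNAs of extreme length or before short genes, near copies elsewhere, all markers and the 4 processing genes of highest mean TPM; the other processing genes were named after their values were seen. The members and lists were chosen with earlier results of these data known.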

Additional observations from a re-analysis of the deposited data

How the results depend on the processing

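The mitochondrial share of TPM was 92.8% in replicate 1 and 60.9% in replicate 2, or 76.8% on average. Without the nuclear copies it was 65.0% and 34.4%, or 49.7% on average. The ratio of mt-Atp8 to mt-Atp6, 1.94, was 0.506 per annotated length and 5.51 with genes alone. The ratio of mt-Nd4l to mt-Nd4, 1.20, was 0.547 per annotated length and 0.125 with genes alone. Without each library in turn it ran from 0.958 (without replicate 2, which turns its direction) to 1.45. With the effective length of the gene it was 1.03 in replicate 1 and 1.42 in replicate 2. The turn between libraries thus depends on the TPM given to the partial copy. Library totals gave 8670 genes higher and 139 lower in replicate 2, where TMM gave 5058 and 3586. Per annotated length 12 of the 15 levels moved by more than 1 SD, and with genes alone 14. With the effective length of the mitochondrial gene 3 moved. Posterior means moved 1 of 7 copy shares by that measure, Gm10925 (63.0% to 50.1%). The mean shares of Gm28437 (75.7% to 61.8%) and Gm28661 (84.1% to 70.9%) also fell. They stayed within 1 SD because their SDs over the libraries were wide, 21.5 and 16.4. Except where the construction of the setting shows it, the cause was not tested. The ratios with genes alone, the effective length of the gene and the counting of calls with copies added were chosen after seeing the data. Leaving out 1 of 2 libraries cannot move a mean by more than 1 SD and leaves nothing to test between libraries. No paired analysis was possible because there is 1 group. Depth did not limit the mRNAs; the effective length of 0 limited the tRNAs.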

Other observations

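Other nuclear genes also match the mitochondrial genome. Of the features in the tables, 38 nuclear genes matched a mitochondrial gene by blastn, 27 of them over at least 90% of their length, and 11 of those at 95% identity or more, the 7 copies on chromosome 1 among them. The other 4 near copies held few counts. Gm13341 (chr2:22587291-22587962, 95.9% identical to mt-Co2) had 160.83 and 38.69, Gm13340 (chr2:22588103-22589647, 97.6% identical to mt-Co1) had 60.17 and 41.38, Gm4076 (chr13:85126550-85127514, 95.2% identical to mt-Nd5) had 1 and 0, and Gm13339 (chr2:22590024-22590533, 96.7% identical to mt-Nd2) had 0 in both. The 16 that matched over at least 90% of their length at 69.8% to 93.6% identity had no count in either library. Among nuclear genes matched over at least 90% of their length, nearly all counts thus lay in the chromosome 1 block, whose copies have the highest identity. These are values of 2 libraries and were not tested.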
